A study of Mus musculus with 12 samples.

Results

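The genes described here mark pancreatic stellate cells, fibroblasts and pericytes, or encode the extracellular matrix and the enzymes that process it. The list holds 46 genes, chosen by name among known cell markers and matrix components. No measured value entered the choice by rule, but it was made with earlier results of these data known. Of these, 42 had at least 1 probe set with a single gene symbol, and 39 passed the filter on low levels, of 12825 genes tested among 17097 with such a probe set. The study compared isolated islets of Langerhans, the hormone-secreting clusters of the pancreas, from 12-week-old mice of 4 genotypes with 3 arrays each. Wild-type mice (WT) were the controls. Mice labelled hIAPP-Tg (hIAPP below) overexpressed human islet amyloid polypeptide, a peptide that beta cells co-secrete with insulin and that can aggregate into islet amyloid. BACE2-KO mice lacked BACE2, an aspartyl protease of beta cells. Mice labelled hIAPP-TgxBACE2-KO (hIAPP/BACE2-KO below) combined both changes. All 12 arrays, the controls included, carry the strain label B6;129P2-Bace2tm1Bdes/J, and all mice had free access to standard chow. The sources used here name neither the promoter of the transgene nor the number of mice behind each array, so the p-values speak only of spread from array to array, which may be technical.

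Stellate cells and fibroblasts lie around islets and ducts, and pericytes wrap the islet capillaries. When activated, stellate cells respond to platelet-derived growth factor and transforming growth factor beta, take on contractile features and deposit fibrillar collagen, periostin and fibronectin. A second kind of matrix, the basement membrane of collagen IV, laminin and nidogen, sits between islet cells and capillaries and is made largely by the endothelium and pericytes. The matrix is cross-linked by lysyl oxidases, cut by matrix metalloproteinases and protected from them by tissue inhibitors of metalloproteinases.

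Promoter sequences are shown for 3 members that stand for the patterns below: Timp1, which had the largest difference between hIAPP/BACE2-KO and BACE2-KO islets, Col3a1, a fibrillar collagen of the interstitial matrix, and Lamb1, a basement membrane laminin chain whose levels ran beside those of collagen IV. Each runs 5′ to 3′ over the 250 bases before the RefSeq transcription start on the plus strand of GRCm38.p6, at chrX:20869916-20870165 for Timp1, chr1:45311288-45311537 for Col3a1 and chr12:31265043-31265292 for Lamb1. Capitals mark matches, on either strand, to the TATA box (TATAAA), the GC box (GGGCGG) and the CCAAT box (CCAAT).
Timp1: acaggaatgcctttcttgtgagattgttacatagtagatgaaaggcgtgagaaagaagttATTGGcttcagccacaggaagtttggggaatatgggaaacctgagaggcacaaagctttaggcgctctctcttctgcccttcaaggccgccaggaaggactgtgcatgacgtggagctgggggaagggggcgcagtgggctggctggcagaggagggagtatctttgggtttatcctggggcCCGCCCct
Col3a1: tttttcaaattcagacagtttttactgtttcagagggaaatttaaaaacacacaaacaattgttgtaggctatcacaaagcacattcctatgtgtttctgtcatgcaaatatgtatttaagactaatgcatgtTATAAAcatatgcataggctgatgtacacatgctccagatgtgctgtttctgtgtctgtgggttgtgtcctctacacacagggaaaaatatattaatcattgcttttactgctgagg
Lamb1: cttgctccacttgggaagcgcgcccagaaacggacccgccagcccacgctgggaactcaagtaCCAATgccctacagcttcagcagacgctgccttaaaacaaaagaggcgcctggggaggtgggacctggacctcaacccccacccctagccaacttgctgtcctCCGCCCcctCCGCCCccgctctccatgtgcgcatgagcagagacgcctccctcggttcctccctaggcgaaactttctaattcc
Timp1 held 1 GC box and 1 CCAAT box, Col3a1 held 1 TATA box and Lamb1 held 2 GC boxes and 1 CCAAT box. RefSeq promoters were given for 30 of the 46 members. A GC box lay in 18 of the 30 (60%) against 35.4% of 27025 genes with a promoter, a CCAAT box in 11 (36.7%) against 37.5%, and a TATA box in 3 (10%; Postn, Col3a1 and Vim) against 14.3%. The AP-1 motif TGANTCA, searched in the same way, lay in 1 (3.3%; Col6a1) against 7.8%. These counts describe letters in a window and show no binding. Col4a1 and Col4a2, the collagen IV chains, start 21 bases apart on opposite strands of chromosome 8, at 11312826 and 11312805.

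RNA was hybridised to Affymetrix arrays, and the values are log2 levels after RMA, the authors' background correction, quantile normalisation and probe set summary. Array medians lay between 4.22 and 4.35 and maxima between 13.93 and 14.03, and precision is limited by 3 arrays per genotype. Ins2 and Gcg, the beta and alpha cell hormone genes, stood at 13.93 to 14.03 and 13.05 to 13.22 on every array, as the islet label requires, and 17 acinar markers averaged 8.49 to 10.68, so exocrine RNA was in every preparation. Among markers of quiescent stellate cells, Gfap read 3.58 to 4.08 and Lrat 3.01 to 3.50, close to or below the filter level of 3.43, while Reln, encoding reelin, passed it at 3.58 to 5.33. Reln was higher on every BACE2-KO array (4.49, 4.78 and 5.33) than on the WT arrays (3.62, 4.45 and 4.21), by 0.77 (limma adjusted p = 0.757). Pdgfra, Col1a2 and Fbln2 averaged 3.10, 3.12 and 2.98, below the filter, and were not tested. Lama4, Nid2, Fbn1 and Tagln lacked a probe set naming them alone and are not analysed here. Many of the members that passed, among them Sparc, Vim, Col4a1 and Mgp, are also made by endothelial or other cells. In whole islets, fewer cells of a type and less RNA per cell cannot be told apart.

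Among the arrays, 2 stood apart for these genes. The array hIAPP/BACE2-KO replicate 2 held the highest of the 12 values for 26 of the 39 members, against 9.2% of all genes, and exceeded both other hIAPP/BACE2-KO arrays for 31 members, against 30.5% of all genes. It lay more than 1 log2 unit above the mean of replicates 1 and 3 for 13 members, led by Lox (3.27), Timp1 (3.14) and Mfap5 (2.66). In the other direction, BACE2-KO replicate 2 held the lowest value for 16 members, against 7.2% of all genes, and lay below both other BACE2-KO arrays for 27, against 32.6%. Both arrays enter the comparison that gave the largest differences, so values without them stand beside its main results. The mean over the 39 members was 7.18 on the first and 5.94 on the second, and 6.01 to 6.58 on the other 10 arrays.

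**Figure D1:**
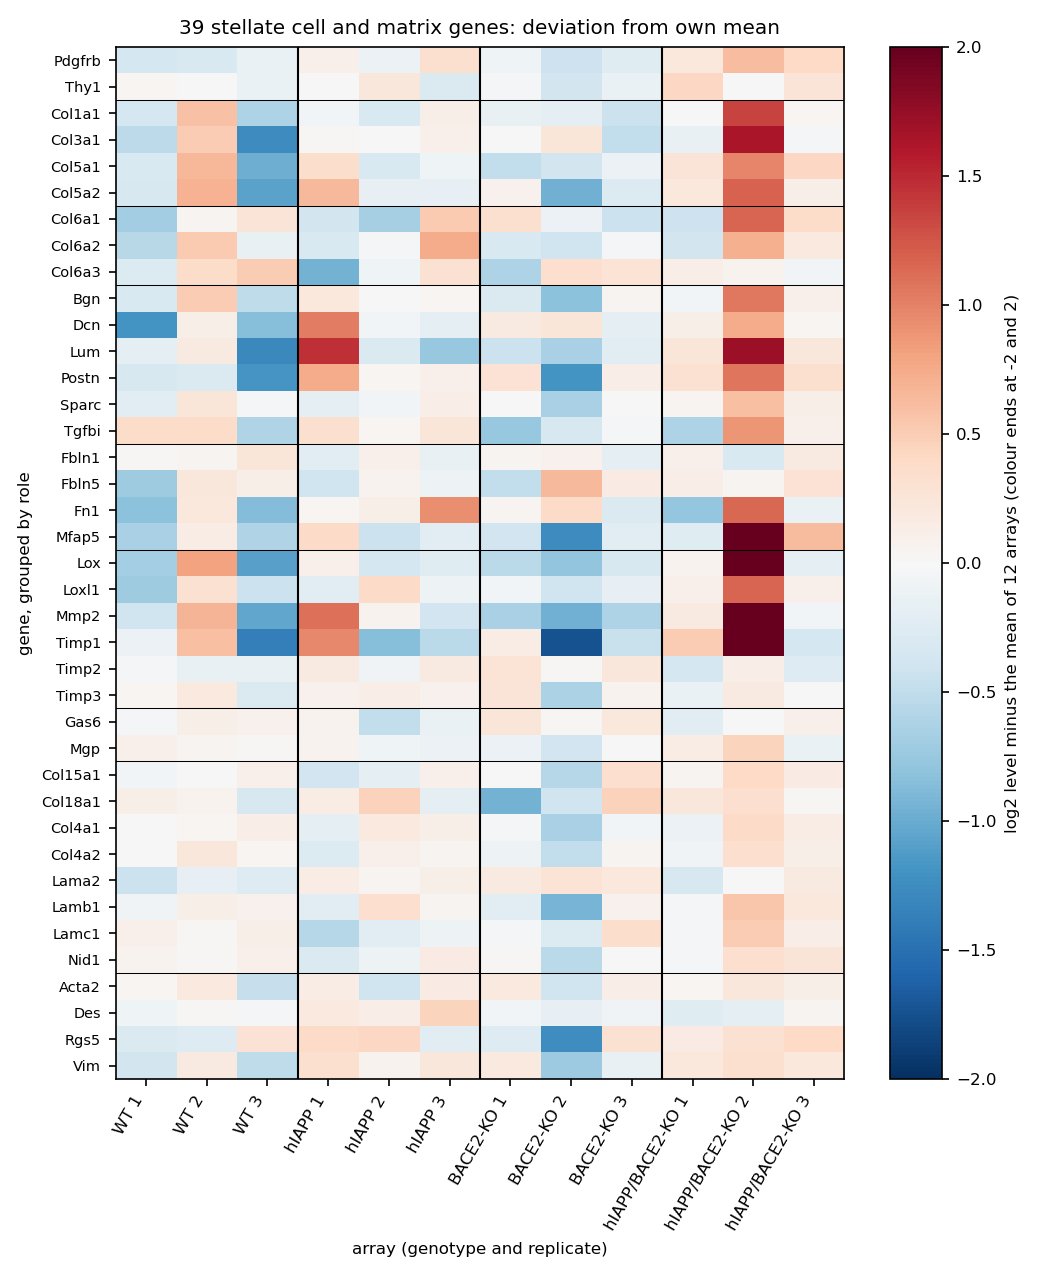
Heat map of the 39 tested members (rows, grouped by role) on the 12 arrays (columns, by genotype and replicate); colour gives the log2 level minus the gene's mean over 12 arrays, with the colour scale ending at -2 and 2. hIAPP/BACE2-KO replicate 2 is red in most rows and held the highest value for 26 members, and BACE2-KO replicate 2 held the lowest for 16.

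No member passed an adjusted p of 0.05 in any of the 8 comparisons fitted with limma (p adjusted by Benjamini-Hochberg over 12825 genes), so the differences below are values, with the share of all genes beside each count. In hIAPP against WT islets, the effect of the transgene with BACE2 present, 0 of 39 members were called against 0.0156% of all genes, and 4 were higher and 0 lower at an unadjusted p under 0.05 against 1.43% and 3.1% of all genes. Of the 39, 27 were higher and 12 lower in hIAPP islets, with a median difference of 0.16, where the median of all genes was -0.03 and 41.2% of genes were higher. The arrays of both groups did not overlap for 4 members on the higher side and 1 on the lower, against 3.39% and 5.77% of all genes. The median was 0.03 without WT replicate 3 and 0.31 without WT replicate 2, where 30 members were higher and 16 did not overlap (6.97% of all genes). The 4 members at an unadjusted limma p under 0.05 became 1 without WT replicate 1, 2 without WT replicate 3 and 6 without WT replicate 2.

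In BACE2-KO against WT islets, the effect of BACE2 loss alone, 0 members were called against 0.125% of all genes, and 2 were higher and 0 lower at an unadjusted limma p under 0.05 (3.2% and 3.08% of all genes). Lower values were in the majority, with 13 members higher and 26 lower and a median difference of -0.12, while 52.1% of all genes were higher. The groups did not overlap for 2 members on the higher side and 2 on the lower (6.59% and 6.34% of all genes). The direction rested on single arrays: without BACE2-KO replicate 2 the median was 0.07, with 20 higher and 18 lower, and without WT replicate 2 it was 0.055. In hIAPP/BACE2-KO against hIAPP islets, the effect of BACE2 loss with the transgene present, 0 members were called against 0.101% of all genes, with 1 higher and 1 lower at an unadjusted limma p under 0.05 (5.03% and 3.34%). Here 33 were higher and 6 lower with a median of 0.26, against 56.8% of all genes higher, and the groups did not overlap for 1 member on each side (6.56% and 4.57%). The median was 0.08, with 26 higher and 13 lower, without hIAPP/BACE2-KO replicate 2.

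The members' median difference was largest in hIAPP/BACE2-KO against BACE2-KO islets, the effect of the transgene without BACE2. Again 0 members were called, and 0% of all genes. Of the 39, 35 were higher and 4 lower, against 45.8% of all genes higher, and the median difference was 0.44 against -0.01 for all genes. At an unadjusted limma p under 0.05, 15 were higher and 1 lower, against 2.36% and 2.07% of all genes, with a smallest adjusted p of 0.962. All 3 hIAPP/BACE2-KO arrays lay above all 3 BACE2-KO arrays for 12 members, against 4.09% of all genes, and below them for 0, against 5.59%. Leaving out hIAPP/BACE2-KO replicate 2 gave 34 higher, 2 at an unadjusted p under 0.05 (1.54% of all genes), 13 without overlap (7.26%) and a median of 0.26. Leaving out BACE2-KO replicate 2 gave 33 higher, 1 at an unadjusted p under 0.05 (1.68%), 12 without overlap (8.77%) and a median of 0.31. With both left out, 30 were higher and 9 lower, 2 had an unadjusted limma p under 0.05 (1.55%), 13 did not overlap (13.7%) and the median was 0.145. The direction was thus kept in these settings, while the number at an unadjusted p under 0.05 was not.

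The comparison of hIAPP/BACE2-KO with WT islets shares arrays with the others and gave 34 members higher and 5 lower, with a median of 0.26 and 49.1% of all genes higher. In it 0 members were called against 0.133% of all genes, 7 were higher and 0 lower at an unadjusted limma p under 0.05 against 3.88% and 4.55%, and 4 did not overlap on the higher side and 0 on the lower against 6.68% and 8.2%. The 7 became 14 without WT replicate 2, 13 without hIAPP/BACE2-KO replicate 1, 2 without WT replicate 1 or hIAPP/BACE2-KO replicate 2 and 1 without WT replicate 3, and the median ranged from 0.15 (without hIAPP/BACE2-KO replicate 2) to 0.43 (without hIAPP/BACE2-KO replicate 1). Averaged over BACE2 status, the transgene effect had a median of 0.31, with 34 of 39 members higher (42.1% of all genes), 0 called (0.0078%) and 10 higher and 0 lower at an unadjusted limma p under 0.05 (3.06% and 4.52%). Without hIAPP/BACE2-KO replicate 2 that median was 0.17 with 34 higher, and the 10 became 5, while over all arrays left out in turn they became 4 (without WT replicate 1 or 3) to 14 (without WT replicate 2). Averaged over transgene status, BACE2 loss had a median of 0.10, with 27 higher (55.4% of all genes), 0 called (0.912%) and 0 higher and 1 lower at an unadjusted limma p under 0.05 (6.7% and 4.75%). This direction depended on the arrays used: without hIAPP/BACE2-KO replicate 2 the median was -0.0125, with 19 higher and 20 lower. It was 0.145 with 33 higher without BACE2-KO replicate 2. With both arrays that stood apart left out it was 0.0625, with 24 higher and 15 lower. The interaction, which asks whether the transgene effect depends on BACE2, was above 0 for 33 members (54.8% of all genes) with a median of 0.40. In it 0 members were called (0.0078% of all genes), 1 was higher and 2 lower at an unadjusted limma p under 0.05 (1.4% and 0.998%), and the smallest adjusted limma p among them was 0.9995, so a dependence on BACE2 was not shown for any member. The interaction's median was 0.20 without hIAPP/BACE2-KO replicate 2 and 0.072, with 21 above 0 and 18 below, with both arrays that stood apart left out.

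**Figure D2:**
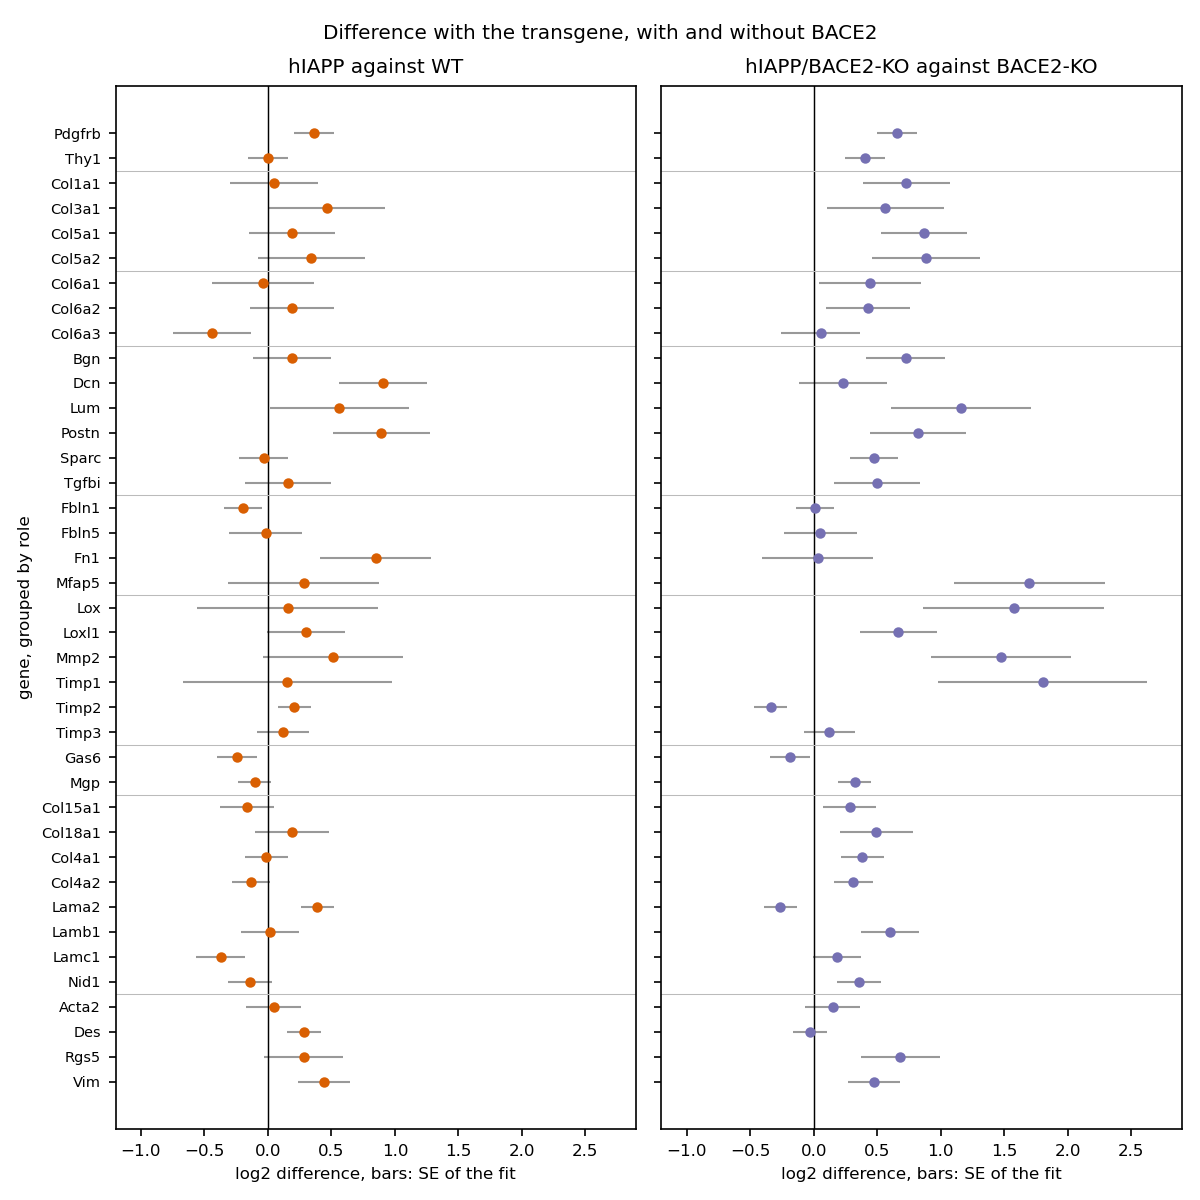
Log2 difference of each tested member (rows, grouped by role) for hIAPP against WT (left) and hIAPP/BACE2-KO against BACE2-KO (right); points are the fitted differences, bars are the SE of the limma fit and the vertical line marks 0. On the right 35 of 39 points lie above 0 and the farthest are Timp1, Mfap5, Lox and Mmp2, with the widest bars; on the left 27 lie above 0.

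Among the surface receptors, Pdgfrb, the platelet-derived growth factor receptor of pericytes and mesenchymal cells, had the smallest unadjusted p of the members in that comparison. On replicates 1, 2 and 3 it read 4.35, 4.39 and 4.57 in WT, 4.80, 4.58 and 5.02 in hIAPP, 4.62, 4.29 and 4.45 in BACE2-KO and 4.91, 5.32 and 5.10 in hIAPP/BACE2-KO islets. Every hIAPP array lay above every WT array, though hIAPP replicate 2, at 4.58, barely cleared WT replicate 3, at 4.57, and every hIAPP/BACE2-KO array lay above every BACE2-KO array. The difference between hIAPP/BACE2-KO and BACE2-KO was 0.66 (SE 0.16, limma unadjusted p = 0.00119, adjusted p = 0.962), and it was 0.55 to 0.76 when each array was left out in turn and 0.47 without both arrays that stood apart. Between hIAPP and WT it was 0.36 (SE 0.16, limma adjusted p = 0.950), with a range of 0.25 to 0.47. Averaged over BACE2 status the transgene difference was 0.51 (SE 0.11, limma unadjusted p = 0.000569, adjusted p = 0.644), the smallest unadjusted p of any member in that comparison.

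Thy1, a surface glycoprotein of fibroblasts that T cells and neurons also carry, read 4.34, 4.32 and 4.18 in WT, 4.30, 4.53 and 4.02 in hIAPP, 4.28, 3.94 and 4.18 in BACE2-KO and 4.72, 4.32 and 4.57 in hIAPP/BACE2-KO islets. Its hIAPP/BACE2-KO arrays lay above all BACE2-KO arrays, and its hIAPP arrays straddled WT. The difference between hIAPP/BACE2-KO and BACE2-KO was 0.40 (SE 0.16), and 0.415 with both arrays that stood apart left out, and that between hIAPP and WT was 0.00. Pdgfra, the receptor of interstitial fibroblasts, stayed below the filter with values of 3.10, 3.33 and 2.61 in WT, 3.21, 3.23 and 3.14 in hIAPP, 2.94, 3.14 and 3.11 in BACE2-KO and 3.04, 3.13 and 3.24 in hIAPP/BACE2-KO islets. The arrays of the other genotypes all lay within the WT range for Pdgfra.

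The fibrillar collagens give the interstitial matrix its tensile strength. Col1a1, the main chain of collagen I, read 3.31, 4.24 and 3.04 in WT, 3.61, 3.35 and 3.77 in hIAPP, 3.51, 3.46 and 3.22 in BACE2-KO and 3.67, 5.01 and 3.70 in hIAPP/BACE2-KO islets. Only WT replicate 2 and hIAPP/BACE2-KO replicate 2 stood clear of the filter level of 3.43, and the other 10 arrays lay around it, from 3.04 to 3.77. Col1a1 was 0.73 higher in hIAPP/BACE2-KO than in BACE2-KO islets (SE 0.35), without overlap, and 0.05 higher in hIAPP than in WT. The first of these differences was 0.29 without hIAPP/BACE2-KO replicate 2 and 0.32 with both arrays that stood apart left out. Col5a1, a chain of collagen V that nucleates collagen I fibrils, read 4.82, 5.80 and 4.15 in WT, 5.48, 4.82 and 5.04 in hIAPP, 4.64, 4.77 and 5.01 in BACE2-KO and 5.39, 6.10 and 5.54 in hIAPP/BACE2-KO islets. The WT arrays of Col5a1 covered nearly the whole range of the other genotypes, while its hIAPP/BACE2-KO arrays all exceeded BACE2-KO, by 0.87 (SE 0.34), and by 0.64 with both arrays that stood apart left out. Its other probe sets gave 0.50 and 0.19.

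Col5a2, the partner chain, ran from 6.39 to 8.65 and Col3a1, the collagen III chain of elastic tissues and vessels, from 6.93 to 9.83. All 4 fibrillar collagens tested were highest on hIAPP/BACE2-KO replicate 2 and lowest on WT replicate 3. Their median difference was 0.80 in hIAPP/BACE2-KO against BACE2-KO, 0.50 in hIAPP/BACE2-KO against hIAPP and 0.27 in hIAPP against WT, with 4 of 4 higher in each, and -0.125 in BACE2-KO against WT with 1 of 4 higher. The 0.80 became 0.42 without hIAPP/BACE2-KO replicate 2, where Col3a1 was at -0.015, and 0.29 with both arrays that stood apart left out. Without hIAPP/BACE2-KO replicate 2, the median over all 39 members against hIAPP was 0.08. In hIAPP against WT, Col1a1 and Col5a1 were each at -0.20 without WT replicate 3. For Col3a1 and Col5a2, WT replicates 1 and 2 read 7.67 and 8.70, and 7.15 and 8.16, on both sides of the hIAPP arrays. Other probe sets there gave -0.06 for Col3a1, 0.14 and 0.02 for Col5a1 and 0.12 for Col5a2. Collagen VI is the microfibrillar collagen around cells. Its chains Col6a1, Col6a2 and Col6a3 had a median difference of 0.43 in hIAPP/BACE2-KO against BACE2-KO, with 3 of 3 higher (0.048 without hIAPP/BACE2-KO replicate 2), and of -0.04 in hIAPP against WT, with 1 of 3 higher. Col6a3 was the member furthest below WT in hIAPP islets, at -0.44, with hIAPP values of 7.89, 8.74 and 9.14 against 8.56, 9.19 and 9.34.

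Proteoglycans and matricellular proteins organise collagen fibrils and signal to cells. Postn, periostin, a product of activated stellate cells, read 5.48, 5.52 and 4.63 in WT, 6.55, 5.85 and 5.91 in hIAPP, 6.09, 4.61 and 5.94 in BACE2-KO and 6.11, 6.87 and 6.12 in hIAPP/BACE2-KO islets. The hIAPP arrays were all above WT and the hIAPP/BACE2-KO arrays all above BACE2-KO, though BACE2-KO replicate 1, at 6.09, lay just under the lowest hIAPP/BACE2-KO array, at 6.11. The difference was 0.89 in hIAPP against WT (SE 0.38, limma unadjusted p = 0.0362, adjusted p = 0.950) and 0.82 in hIAPP/BACE2-KO against BACE2-KO (SE 0.38), which was 0.35 without BACE2-KO replicate 2 and 0.10 without both arrays that stood apart. Against WT, hIAPP/BACE2-KO was higher by 1.16 (SE 0.38, limma adjusted p = 0.373).

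Dcn, decorin, a small leucine-rich proteoglycan that binds collagen I, showed another pattern. It read 6.51, 7.82 and 6.86 in WT, 8.73, 7.65 and 7.53 in hIAPP, 7.88, 7.94 and 7.51 in BACE2-KO and 7.82, 8.45 and 7.75 in hIAPP/BACE2-KO islets. Only WT replicates 1 and 3 were below 7.5, and the other 10 arrays lay between 7.51 and 8.73 whatever their genotype. Its differences from WT were 0.91 in hIAPP (SE 0.35, limma unadjusted p = 0.0229, adjusted p = 0.950) and 0.71 in BACE2-KO (SE 0.35), both with overlap. Sparc, a collagen-binding matricellular protein also made by endothelium, read 9.37, 9.83 and 9.54 in WT, 9.39, 9.53 and 9.72 in hIAPP, 9.59, 8.93 and 9.57 in BACE2-KO and 9.63, 10.18 and 9.70 in hIAPP/BACE2-KO islets. The hIAPP/BACE2-KO arrays of Sparc were all above BACE2-KO, the lowest at 9.63 against 9.59, and the fitted difference was 0.47 (SE 0.19), 0.26 without BACE2-KO replicate 2 and 0.085 without both arrays.

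The remaining members of this role were Lum, Bgn and Tgfbi, encoding lumican, biglycan and a transforming growth factor beta-induced adhesion protein, with values from 3.49 to 6.49, 7.30 to 9.18 and 7.07 to 8.71. All 6 genes of the role were higher in hIAPP/BACE2-KO than in BACE2-KO, with a median of 0.61 that became 0.12 with both arrays that stood apart left out, and 5 of 6 in hIAPP than in WT, with a median of 0.38. WT replicate 3 was the lowest WT array for Lum, Bgn and Tgfbi, at 3.49, 7.61 and 7.23. The other WT arrays read 4.61 and 4.97, 7.82 and 8.64, and 8.19 and 8.19. The hIAPP arrays of these genes ran from 4.03 to 6.24, 8.14 to 8.33 and 7.86 to 8.15. Without WT replicate 3 the median over all 39 members in hIAPP against WT was 0.03, with Postn at 0.60. Lum differed most between hIAPP/BACE2-KO and BACE2-KO, at 1.16 and without overlap, and at 0.56 with both arrays that stood apart left out.

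Fibronectin and the elastic fibre glycoproteins form the scaffold on which other matrix assembles. Fn1, fibronectin, read 5.03, 6.06 and 4.97 in WT, 5.88, 5.96 and 6.77 in hIAPP, 5.90, 6.22 and 5.56 in BACE2-KO and 5.07, 6.99 and 5.71 in hIAPP/BACE2-KO islets. Every genotype overlapped every other for Fn1, and the hIAPP/BACE2-KO arrays, from 5.07 to 6.99, spread more widely than any other group. The differences were 0.85 in hIAPP (SE 0.44) and 0.54 in BACE2-KO against WT, and 0.03 in hIAPP/BACE2-KO against BACE2-KO, which was -0.50 without hIAPP/BACE2-KO replicate 2. Mfap5, a microfibril-associated glycoprotein, read 3.93, 4.73 and 3.98 in WT, 4.97, 4.15 and 4.37 in hIAPP, 4.20, 3.33 and 4.36 in BACE2-KO and 4.34, 7.43 and 5.21 in hIAPP/BACE2-KO islets. No array but hIAPP/BACE2-KO replicate 2 exceeded 5.21, and replicate 1 was below the highest BACE2-KO array. The difference from BACE2-KO was 1.70 (SE 0.59, limma unadjusted p = 0.014, adjusted p = 0.962), 0.81 without that array and 0.495 without both arrays that stood apart, and the gene's other probe set gave 0.80. The fibulins Fbln1 and Fbln5 differed by 0.01 and 0.05 in the same comparison, with values from 3.68 to 4.23 and 4.45 to 5.81.

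The matrix enzymes and their inhibitors held 3 of the 4 largest differences in hIAPP/BACE2-KO against BACE2-KO, with a median over the 6 tested of 1.07, and of 0.22 with both arrays that stood apart left out. Timp1, an inhibitor of metalloproteinases, read 7.21, 7.93 and 5.96 in WT, 8.29, 6.48 and 6.79 in hIAPP, 7.47, 5.58 and 6.89 in BACE2-KO and 7.84, 10.54 and 6.97 in hIAPP/BACE2-KO islets. The highest and the lowest of the 12 values were replicate 2 of hIAPP/BACE2-KO and replicate 2 of BACE2-KO, and the other 10 lay between 5.96 and 8.29 with all genotypes mixed. The difference between these genotypes was 1.80 (SE 0.82, limma adjusted p = 0.962), 0.76 without hIAPP/BACE2-KO replicate 2 and 0.225 without both. Lox, lysyl oxidase, which cross-links collagen and elastin, read 4.47, 5.95 and 4.06 in WT, 5.24, 4.80 and 4.91 in hIAPP, 4.61, 4.36 and 4.83 in BACE2-KO and 5.22, 8.35 and 4.95 in hIAPP/BACE2-KO islets. All 3 hIAPP/BACE2-KO arrays were above the BACE2-KO arrays, 2 of them within the range of hIAPP and WT. The difference was 1.57 (SE 0.71), 0.485 without hIAPP/BACE2-KO replicate 2, and its other probe sets gave 1.36 and -0.00, the last with a mean level of 2.91.

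Mmp2, gelatinase A, which cuts collagen IV and denatured collagen, read 4.57, 5.65 and 3.92 in WT, 6.07, 5.03 and 4.58 in hIAPP, 4.31, 4.01 and 4.34 in BACE2-KO and 5.14, 7.03 and 4.91 in hIAPP/BACE2-KO islets. The 3 BACE2-KO arrays were close together and low, and the hIAPP/BACE2-KO arrays all lay above them, the lowest at 4.91 against 4.34. The difference was 1.47 (SE 0.55, limma unadjusted p = 0.0194, adjusted p = 0.962), 0.805 without hIAPP/BACE2-KO replicate 2 and 0.70 without both arrays. Against hIAPP islets the Mmp2 difference turned from above 0 to -0.20 when hIAPP/BACE2-KO replicate 2 was left out. Timp2, an inhibitor that also takes part in Mmp2 activation, was the only member lower in hIAPP/BACE2-KO than in BACE2-KO at an unadjusted limma p under 0.05. It read 7.59, 7.47 and 7.47 in WT, 7.80, 7.55 and 7.80 in hIAPP, 7.90, 7.65 and 7.85 in BACE2-KO and 7.27, 7.75 and 7.36 in hIAPP/BACE2-KO islets. The BACE2-KO arrays were all above WT, by 0.29 on average (SE 0.13, limma unadjusted p = 0.0458, adjusted p = 0.788), and 2 of 3 hIAPP/BACE2-KO arrays were below every other array. The difference of hIAPP/BACE2-KO from BACE2-KO was -0.34 (limma adjusted p = 0.962), and -0.56 with both arrays that stood apart left out, and the other probe sets of Timp2 gave -0.23, -0.14, 0.06 and 0.01. Loxl1, a second cross-linking enzyme, ran from 3.61 to 5.49 and differed by 0.67 (0.22 with both arrays that stood apart left out), and Timp3, a matrix-bound inhibitor, ran from 6.12 to 7.01 and differed by 0.12 (-0.225 without the same arrays).

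The vitamin K-dependent proteins were Mgp, an inhibitor of calcification, and Gas6, a ligand of the TAM receptor kinases. Mgp ran from 10.19 to 11.02 and was 0.32 higher in hIAPP/BACE2-KO than in BACE2-KO islets (0.07 with both arrays that stood apart left out), and its BACE2-KO arrays were all below WT, by -0.23 on average. Gas6 ran from 4.58 to 5.32 and differed by -0.19 in the first of these comparisons.

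The 8 basement membrane genes tested differed by between -0.39 and 0.60 over the 4 simple comparisons. Lama2, the laminin alpha chain of muscle, nerve and mesenchymal basement membrane, read 3.23, 3.49 and 3.39 in WT, 3.80, 3.71 and 3.77 in hIAPP, 3.84, 3.93 and 3.86 in BACE2-KO and 3.33, 3.67 and 3.84 in hIAPP/BACE2-KO islets. Both single-change genotypes lay above WT on every array, by 0.39 (SE 0.13, limma unadjusted p = 0.011, adjusted p = 0.950) and 0.51 (SE 0.13, limma unadjusted p = 0.00206, adjusted p = 0.318), while the combined genotype spread from the WT to the BACE2-KO range. Without each array in turn the BACE2-KO difference was 0.44 to 0.57. The interaction for Lama2 was -0.65 (SE 0.19, limma unadjusted p = 0.0039, adjusted p = 0.9995). The levels of Lama2 lay on both sides of the filter level of 3.43.

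Lamc1, the laminin gamma chain shared by most laminins, read 6.07, 5.98 and 6.08 in WT, 5.39, 5.76 and 5.86 in hIAPP, 5.94, 5.69 and 6.31 in BACE2-KO and 5.93, 6.47 and 6.09 in hIAPP/BACE2-KO islets. The hIAPP arrays lay below all WT arrays and below all hIAPP/BACE2-KO arrays. The difference was -0.37 against WT, and hIAPP/BACE2-KO was higher than hIAPP by 0.49 (SE 0.19, limma unadjusted p = 0.023, adjusted p = 0.490), or 0.20 with the gene's other probe set. The collagen IV chains Col4a1 and Col4a2, the laminin chain Lamb1, the linker nidogen Nid1 and the collagens Col15a1 and Col18a1 had values from 7.92 to 8.95, 7.61 to 8.44, 7.10 to 8.59, 6.0 to 6.88, 4.50 to 5.47 and 4.89 to 6.30. BACE2-KO replicate 2 was the lowest of 12 arrays for 5 of the 8, and hIAPP/BACE2-KO replicate 2 the highest for 6. In hIAPP/BACE2-KO against BACE2-KO, 7 of 8 were higher with a median of 0.33, led by Lamb1 at 0.60, which became 5 of 8, 0.055 and 0.155 with both arrays that stood apart left out. In BACE2-KO against WT 7 of 8 were lower with a median of -0.245. BACE2-KO replicate 2 differed from the mean of replicates 1 and 3 by -0.87 for Lamb1, -0.745 for Col15a1 and -0.60 for Col4a1. For Nid1, Col4a2, Lamc1, Col18a1 and Lama2 this was -0.555, -0.475, -0.435, -0.165 and 0.08. Without that array the median over all 39 members in BACE2-KO against WT was 0.07.

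The contractile, filament and mural genes mark activated stellate cells and pericytes. Acta2, smooth muscle actin, read 6.06, 6.23 and 5.57 in WT, 6.18, 5.63 and 6.19 in hIAPP, 6.22, 5.63 and 6.16 in BACE2-KO and 6.06, 6.26 and 6.14 in hIAPP/BACE2-KO islets. Its level was 6.06 to 6.26 on 9 arrays and 5.57 to 5.63 on 1 array of each genotype other than hIAPP/BACE2-KO. The difference was 0.05 in hIAPP against WT and 0.15 in hIAPP/BACE2-KO against BACE2-KO, with an SE of 0.22, and the second was -0.09 with both arrays that stood apart left out. Des, desmin, an intermediate filament of muscle and pericytes, read 4.70, 4.81 and 4.75 in WT, 4.97, 4.92 and 5.22 in hIAPP, 4.72, 4.61 and 4.71 in BACE2-KO and 4.53, 4.58 and 4.84 in hIAPP/BACE2-KO islets. The hIAPP arrays were above all others, by 0.28 against WT, and the hIAPP/BACE2-KO arrays were lower than hIAPP by -0.39 (SE 0.13, limma unadjusted p = 0.0122, adjusted p = 0.429). A second probe set of Des gave -0.03.

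Rgs5, a regulator of G protein signalling that marks pericytes, read 7.60, 7.62 and 8.17 in WT, 8.27, 8.30 and 7.67 in hIAPP, 7.63, 6.64 and 8.19 in BACE2-KO and 8.04, 8.18 and 8.28 in hIAPP/BACE2-KO islets. On this probe set a single array, BACE2-KO replicate 2, lay below 7.60, and the other 11 lay between 7.60 and 7.67 or between 8.04 and 8.30, in a way that crossed genotypes. The difference of 0.68 in hIAPP/BACE2-KO against BACE2-KO came with overlap and was 0.26 without BACE2-KO replicate 2. Its other probe sets gave 0.43, 0.68 and 0.67 there. In hIAPP against WT they gave 0.43, 0.45 and 0.65, against 0.28 for the probe set kept. On the last of them all hIAPP arrays (6.22 to 6.48) lay above all WT arrays (5.30 to 6.11). Vim, vimentin, the intermediate filament of mesenchymal cells, read 9.06, 9.61 and 8.92 in WT, 9.75, 9.51 and 9.66 in hIAPP, 9.63, 8.71 and 9.29 in BACE2-KO and 9.64, 9.76 and 9.65 in hIAPP/BACE2-KO islets. The transgenic arrays were all at 9.51 or above and the others ranged from 8.71 to 9.63. On this probe set hIAPP/BACE2-KO did not overlap with BACE2-KO or with WT, though its lowest array, at 9.64, barely cleared BACE2-KO replicate 1, at 9.63. The hIAPP arrays overlapped with WT through WT replicate 2. The difference of hIAPP/BACE2-KO from BACE2-KO was 0.47 (SE 0.21), 0.22 without BACE2-KO replicate 2 and 0.185 without both arrays that stood apart. The gene's other probe sets gave 0.34 and 0.35, and on each of them hIAPP/BACE2-KO overlapped with BACE2-KO and with WT.

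**Figure D3:**
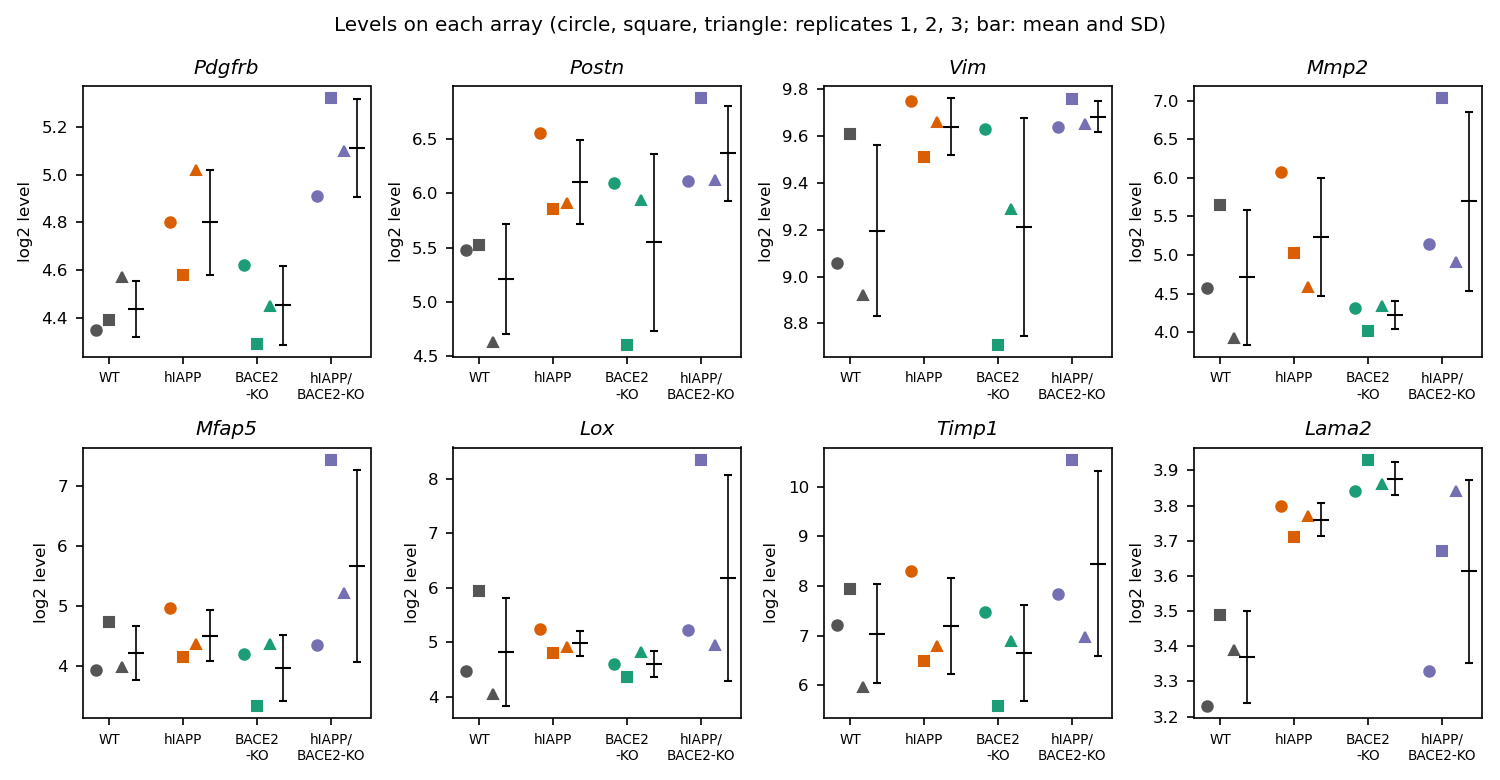
Log2 level of 8 members on each array (circle, square and triangle are replicates 1, 2 and 3) by genotype, with the mean and SD as a bar beside each group; each panel has its own scale. Pdgfrb, Postn and Vim had their highest group means in the 2 transgenic genotypes, with Postn spreading from 4.61 to 6.09 within BACE2-KO, while in Mmp2, Mfap5, Lox and Timp1 the square of hIAPP/BACE2-KO lies far above the rest, at 7.03, 7.43, 8.35 and 10.54.

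Across the 12 arrays the members ran together. Over their 741 pairs the median Pearson r was 0.372, with 79.1% above 0, against a median of 0.019 for all pairs of tested genes. After subtracting each genotype's mean the median was 0.364 against 0.02, so members also ran together among arrays of 1 genotype. On the 10 arrays left after removing both that stood apart it was 0.153, with 62.8% of pairs above 0, against 0.023. These correlations describe arrays that share their preparation, and no p is given. The closest pair was Col4a1 and Lamb1 (r = 0.957, Spearman's rho = 0.851, r = 0.772 on 10 arrays), followed by Col1a1 and Lox (r = 0.951, rho = 0.825, r = 0.893 on 10 arrays). The divergently placed pair Col4a1 and Col4a2 had r = 0.919, rho = 0.834 and r = 0.717 on 10 arrays. Bgn (0.966), Mfap5 (0.934), Sparc (0.908) and Lox (0.885) were most like the mean of the other members, and Fbln1 (-0.605), Col6a3 (-0.099), Fbln5 (-0.069) and Gas6 (-0.022) least. The Fbln1 value holds only for the probe set kept, which was lowest on hIAPP/BACE2-KO replicate 2, at 3.68. Both other probe sets of Fbln1 were highest on that array. In hIAPP against WT they gave 0.27 and 0.08, against -0.19 for the probe set kept.

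Outside the list, the 5 genes whose levels ran closest to the members' mean over 12 arrays were F3 (r = 0.924, 0.768 on 10 arrays), Tpm1 (0.921, 0.709), Ahnak (0.914, 0.741), Cxcl14 (0.913, 0.654) and Fam102b (0.902, 0.904). F3 encodes tissue factor and Tpm1 a tropomyosin of contractile filaments.

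The signalling genes that act on these cells were examined as a list of 20 tested members of the transforming growth factor beta, CCN and platelet-derived growth factor families, of 32. In hIAPP/BACE2-KO against BACE2-KO, 16 of 20 were higher (45.8% of all genes) with a median of 0.29, and 0 were called (0% of all genes). With both arrays that stood apart left out it was 13 of 20 (46.3% of all genes) with a median of 0.10. The lowest of the 20 was Tgfbr3, at -0.43, and Tgfbr3 was at -0.495 with both arrays left out. Ccn4, a matricellular protein downstream of Wnt, read 5.41, 5.33 and 5.15 in WT, 5.27, 5.42 and 5.13 in hIAPP, 4.63, 3.88 and 4.91 in BACE2-KO and 5.16, 6.02 and 5.54 in hIAPP/BACE2-KO islets. The BACE2-KO arrays were below all others. The difference was 1.10 in hIAPP/BACE2-KO against BACE2-KO (SE 0.26, limma unadjusted p = 0.000952, adjusted p = 0.962) and -0.82 in BACE2-KO against WT, comparisons that share the BACE2-KO arrays, and the first was 0.58 with both arrays that stood apart left out. Pdgfb, the ligand of Pdgfrb, read 5.79, 6.32 and 5.97 in WT, 6.06, 5.42 and 5.89 in hIAPP, 5.69, 5.35 and 5.69 in BACE2-KO and 6.11, 6.55 and 6.18 in hIAPP/BACE2-KO islets. It was 0.70 higher in hIAPP/BACE2-KO than in BACE2-KO (SE 0.20, limma unadjusted p = 0.00415, adjusted p = 0.962) without overlap, and 0.455 higher with both arrays that stood apart left out. In hIAPP islets, where Pdgfrb was above WT on every array, Pdgfb overlapped with WT.

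Of 27 other stellate cell and fibroblast markers, 17 were tested, and 14 were higher in hIAPP/BACE2-KO than in BACE2-KO (45.8% of all genes) with a median of 0.17. With both arrays that stood apart left out it was 9 (46.3% of all genes) with a median of 0.085. The lowest of the 17 was Reln, at -0.56, and at -0.425 with both arrays left out. Fap, a surface protease of activated fibroblasts, is not among these 27 markers and comes from another list. Fap read 4.27, 4.01 and 4.0 in WT, 4.44, 4.19 and 4.02 in hIAPP, 4.15, 3.90 and 4.0 in BACE2-KO and 4.62, 4.42 and 4.78 in hIAPP/BACE2-KO islets. Its hIAPP/BACE2-KO arrays were above all BACE2-KO and WT arrays. It was higher than in BACE2-KO by 0.59 (SE 0.15, limma unadjusted p = 0.00166, adjusted p = 0.962), and by 0.625 with both arrays that stood apart left out. In the same comparison 29 of 39 other structural matrix genes were higher with a median of 0.18, 23 of 25 other matrix processing genes with a median of 0.28 and 18 of 25 integrins and matrix receptors with a median of 0.11, and 0 were called in each. With both arrays that stood apart left out these became 22 of 39 with a median of 0.025, 15 of 25 with 0.09 and 14 of 25 with 0.05. Of all genes 45.8% were higher with every array and 46.3% without both. Of 9 pericyte and smooth muscle markers tested, of 20, 6 were higher with a median of 0.04, and 8 with a median of 0.15 with both arrays that stood apart left out.

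Of the genes on all 16 other lists, Igfbp4 and Cd44 alone passed the adjusted threshold in any of the 8 comparisons, and both did so with BACE2 loss. Igfbp4 was 1 of 17 tested on its list and Cd44 1 of 25 integrins and matrix receptors. Of all genes, 0.912% were called with BACE2 loss averaged and 0.133% in hIAPP/BACE2-KO against WT. Both are given as single genes and not as a result about their lists. Igfbp4, a secreted binding protein of insulin-like growth factors listed here among fibroblast markers, read 6.35, 6.91 and 5.76 in WT, 7.14, 6.71 and 6.83 in hIAPP, 7.53, 7.27 and 7.42 in BACE2-KO and 7.92, 7.85 and 7.90 in hIAPP/BACE2-KO islets. All 6 arrays without BACE2 lay above all 6 with it. Igfbp4 rose by 1.03 with BACE2 loss averaged over transgene status (SE 0.16, limma adjusted p = 0.0103), and it was called in all 21 alternatives, with differences of 0.83 to 1.17. Its difference was 1.07 without the transgene and 1.0 with it (limma adjusted p = 0.171 and 0.177), and 1.55 in hIAPP/BACE2-KO against WT (limma adjusted p = 0.0252). That last call was lost in 6 of 22 alternatives, among them leaving out WT replicate 1 or any 1 of the hIAPP/BACE2-KO replicates, with a highest adjusted p of 0.108.

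Cd44, the receptor for hyaluronan, read 9.59, 9.33 and 9.07 in WT, 9.93, 9.64 and 9.41 in hIAPP, 8.03, 8.23 and 8.71 in BACE2-KO and 8.20, 9.07 and 8.88 in hIAPP/BACE2-KO islets. The arrays without BACE2 were at or below the lowest array with it, and it fell by 0.975 averaged over transgene status (SE 0.16, limma adjusted p = 0.0164). The call was lost in 3 of 21 alternatives, the mean of all probe sets and leaving out WT replicate 1 or WT replicate 2, with a highest adjusted p of 0.0583. Epithelial and myeloid cells express Cd44 as well.

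Markers of other cell types moved with some of these values. Of 19 macrophage and myeloid markers 15 were tested, and their mean level ran from 5.80 to 6.22 in WT, 6.36 to 6.82 in hIAPP, 5.79 to 6.23 in BACE2-KO and 5.79 to 6.88 in hIAPP/BACE2-KO islets, highest on hIAPP/BACE2-KO replicate 2. The mean of 19 endothelial markers, all tested, ran from 6.30 to 6.49, 6.18 to 6.44, 5.93 to 6.43 and 6.31 to 6.43 in the same order, lowest on BACE2-KO replicate 2. Of 12 duct markers 9 were tested, with ranges of 7.71 to 8.41, 7.83 to 8.30, 8.01 to 8.60 and 8.16 to 8.69, again highest on hIAPP/BACE2-KO replicate 2. The 17 of 20 acinar markers tested ranged from 8.49 to 10.68, 9.10 to 9.78, 9.47 to 10.65 and 9.16 to 9.87. Beta cell markers, 16 of 19 tested, ran opposite to the members with the transgene. Of the 16, 0 were higher in hIAPP than in WT (41.2% of all genes), with a median of -0.205 and 5 lower at an unadjusted limma p under 0.05 (3.1%). In hIAPP/BACE2-KO against BACE2-KO 3 of 16 were higher (45.8% of all genes), with a median of -0.16. With BACE2 loss the beta cell markers were higher for 6 of 16 in BACE2-KO than in WT (52.1% of all genes). They were higher for 11 of 16 in hIAPP/BACE2-KO than in hIAPP (56.8%). The medians there were -0.04 and 0.08, against 0.01 and 0.03 for all genes. Their signs matched the members' medians, which became 0.07 without BACE2-KO replicate 2 and 0.08 without hIAPP/BACE2-KO replicate 2. Macrophage markers were higher for 14 of 15 in hIAPP than in WT (41.2% of all genes), with a median of 0.53. Of these, 5 were higher at an unadjusted limma p under 0.05 (1.43% of all genes) and 0 were called. In hIAPP/BACE2-KO against BACE2-KO, 12 of 15 macrophage markers were higher (45.8% of all genes) with a median of 0.28. With both arrays that stood apart left out this last count was 7 of 15 (46.3% of all genes) with a median of -0.07. The macrophage mean had r = 0.621 with the members' mean over 12 arrays, the duct mean 0.581, the endothelial mean 0.203 and the acinar mean -0.013. For the beta cell mean r was -0.334, and -0.092 after subtracting each genotype's mean. Their part in the members' differences was not tested.

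**Figure D4:**
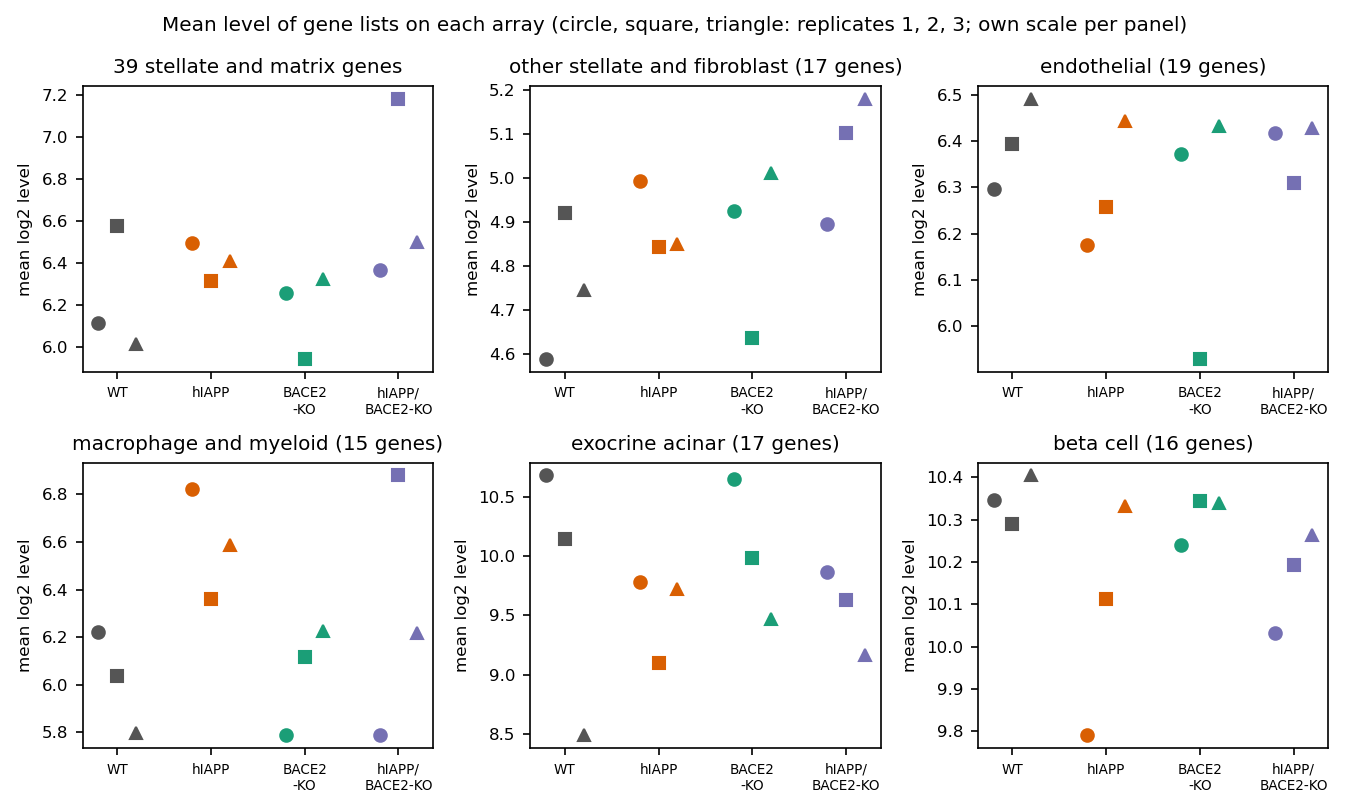
Mean log2 level of the 39 members and of 5 marker lists on each array (circle, square and triangle are replicates 1, 2 and 3) by genotype, with a separate scale in each panel. The square of hIAPP/BACE2-KO is highest for the members (7.18) and for macrophage markers (6.88), and the square of BACE2-KO is lowest for the members (5.94) and endothelial markers (5.93).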

How the data were processed

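Total RNA from islets was hybridised to Affymetrix arrays. Per the submitters' processing notes the authors used RMA and the affy package (versions not given in the sources used here), and they deposited a table of log2 values with 2 decimals, quantile normalised by that method, for 45141 probe sets on 12 arrays. Of these probe sets 28898 had a single gene symbol, 551 several and 15692 none in the platform table. Per gene, the probe set with the highest mean was kept, and genes whose mean lay under the 25th percentile (3.43) were left out. All 12 arrays were fitted with limma 3.58.1 (R 4.3.3), with a mean per genotype, lmFit and eBayes with a variance trend, and p-values were adjusted by Benjamini-Hochberg over 12825 genes. A gene was called at an adjusted p under 0.05. The fit was tested on simulated data. The members, the other lists and the rules were chosen with earlier results of these data known. Named on every array are members called in any comparison, the 3 with the largest difference in each of 4 simple comparisons, those with an unadjusted p under 0.05 whose groups do not overlap (at most the 6 with the smallest p), and Pdgfrb, Pdgfra, Col1a1, Acta2 and Rgs5. Of the other lists, genes called are named, with some of those among the 2 with the smallest p in a comparison and some of the lowest in a list. Alternatives were another filter, the mean of probe sets, further quantile normalisation, other variance settings, only the groups compared, array weights, a replicate block and each array left out. No batch is given in the labels. Leaving out both arrays that stood apart was chosen after seeing the data.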

Additional observations from a re-analysis of the deposited data

How the results depend on the processing

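No member was called under any of the alternatives in any of the 8 comparisons (limma, adjusted p under 0.05), and each median difference of the members stayed within the spread of their mean between arrays of a genotype (SD 0.29) of its reported value, except that leaving out both arrays that stood apart moved the median in hIAPP/BACE2-KO against BACE2-KO from 0.44 to 0.145 and that of the interaction from 0.40 to 0.072. Over the arrays left out in turn, the median in hIAPP/BACE2-KO against BACE2-KO ranged from 0.26 to 0.51, the one in hIAPP against WT from 0.03 to 0.31, in BACE2-KO against WT from -0.20 to 0.07, in hIAPP/BACE2-KO against hIAPP from 0.08 to 0.32, in hIAPP/BACE2-KO against WT from 0.15 to 0.43, with the transgene averaged from 0.17 to 0.40, with BACE2 loss averaged from -0.0125 to 0.15 and in the interaction from 0.20 to 0.51. The SD of 0.29 is larger than several of these medians, so staying within it does not show that a direction held. In BACE2-KO against WT the median had the opposite sign in 3 of 22 alternatives. Counts of called genes over the whole table moved more: 16 in BACE2-KO against WT became 5 to 36, 13 in hIAPP/BACE2-KO against hIAPP became 3 to 29, 17 in hIAPP/BACE2-KO against WT became 0 (without hIAPP/BACE2-KO replicate 2) to 34, and 117 with BACE2 loss averaged became 43 to 205. The cause was not tested. Arrays with the same replicate number had deviations correlated from -0.129 to 0.372 over 18 pairs (median 0.141, against -0.0705 for other numbers), and 8 of 12 arrays were closest to an array of their own number. Not every pair exceeded 0.1, so the numbers were not taken as pairs; with the replicate block, 22 genes and 0 members were called in BACE2-KO against WT, where the members' median was -0.12, and 29, 27 and 205 genes in hIAPP/BACE2-KO against hIAPP, against WT and with BACE2 loss averaged. Signals near the filter level, as for Col1a1 and Lama2, limit what a difference can show.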
